A study of Mus musculus with 19 samples.

Results

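Ion channels set the membrane potential of microglia and carry the potassium, calcium and proton fluxes that accompany surveillance of brain tissue, cytokine release and the oxidative burst. The genes described here were 9 channel genes used by microglia, chosen by name out of the 56980 genes of the count table: *Kcnk13*, *Kcnk6*, *Kcna3*, *Kcnj2*, *Kcnn4*, *Hvcn1*, *Trpv2*, *Trpm2* and *Cacna1a*. All 9 were among the 18739 genes with enough counts to be tested. Potassium channels dominate the microglial membrane. Two-pore channels hold the cell at a negative resting potential, voltage-gated and calcium-activated channels are associated with the activated state, and potassium leaving the cell is a known trigger of the NLRP3 inflammasome.

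The libraries were made from CD11b+ cells, which were enriched with magnetic beads from the brain of male mice without the olfactory bulb and cerebellum. PARK7/DJ-1 KO mice, whose *Park7* gene carries a gene trap (B6;129P2-*Park7* Gt(XE726) Byg/Mmucd, backcrossed to C57BL/6NCrl), were compared with wildtype littermates aged 3 to 4 months. Mice of each genotype received 1 intraperitoneal injection of lipopolysaccharide (LPS, E. coli O55:B5, 4 μg/g body weight), a bacterial cell wall component that activates innate immune cells, or PBS as the vehicle, 6 h before the tissue was taken. There were 5 wildtype LPS, 4 wildtype PBS, 5 KO LPS and 5 KO PBS mice, with 1 library each. The KO is constitutive and not limited to microglia, and CD11b is also present on neutrophils, monocytes and other myeloid cells. The mice are named below by the replicate number of their labels within a group.

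Total counts ranged from 11936364 to 22788884 per library, so that 3 counts corresponded to 0.139 to 0.256 CPM (counts scaled to a common library size, after TMM normalization). *Park7* itself lay at 20.6 to 32.1 CPM in the wildtype libraries and at 0.457 to 5.38 CPM in the KO libraries, without overlap. The labels call the cells primary microglia, and the 11 microglial markers found in the table summed to 25300 to 40700 CPM after PBS and to 10800 to 17400 CPM after LPS. In the other direction, the 6 monocyte markers summed to 136 to 331 CPM after PBS and to 243 to 661 CPM after LPS, and the 8 neutrophil markers to 25.8 to 241 and to 94.9 to 447 CPM. The 6 B cell markers, of which *Ighm* held the most, were lower after LPS (19.3 to 39 CPM) than after PBS (162 to 327 CPM). The 9 T and NK cell markers summed to 8.7 to 11.5 CPM after PBS and to 2.29 to 5.79 CPM after LPS. Of these, *Cd4* had 7 to 198 counts and *Lck* 6 to 44 counts per library, and the CD3 chain genes *Cd3d*, *Cd3e* and *Cd3g* had 0 to 3. Markers of other brain cells were present at widely varying levels, 515 to 11200 CPM for 5 oligodendrocyte markers, 159 to 3970 CPM for 5 astrocyte markers, 59.5 to 1080 CPM for 5 endothelial markers and 16.2 to 161 CPM for 7 neuronal markers. KO LPS replicate 1 stood apart, with the highest oligodendrocyte, astrocyte and neuronal sums, the first at 11200 CPM beside 13600 CPM of microglial markers. The 6 markers of border-associated macrophages summed to 473 to 636 CPM after PBS and to 272 to 518 CPM after LPS. In such bulk samples a smaller number of cells of a type and less RNA per cell cannot be told apart.

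Per length of exon, the resting wildtype cells held the 9 channels at levels from 110.0 to 0.397 CPM per kb (112 to 1.61 by the length of the canonical transcript). *Kcnk6*, the two-pore channel TWIK-2, had the highest level at 110.0 ± 10.5 CPM per kb (SD, n = 4), followed by the proton channel gene *Hvcn1* at 44.5 ± 8.88. Both stood clear of the next gene in every mouse. *Trpv2*, *Kcnj2*, *Kcnk13* and *Trpm2* formed a middle group with means of 16.8, 15.6, 12.2 and 12.1 CPM per kb, in which the ranges of neighbours overlapped. *Kcna3* (2.73 ± 0.362), *Cacna1a* (1.61 ± 0.133) and *Kcnn4* (0.397 ± 0.0448 CPM per kb) were lowest, and their ranges did not touch. The length taken matters for this order. With the length of the canonical transcript in place of all annotated exons, *Kcnk6* and *Hvcn1* stayed first and second, while *Trpm2* moved ahead of *Kcnk13* and *Kcnj2*, and *Cacna1a* ahead of *Kcna3*.

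After LPS the per-length order in wildtype cells differed. *Hvcn1* (85.8 ± 28.5 CPM per kb, n = 5) now lay above *Kcnk6* (75.4 ± 27.6), with overlapping ranges. *Kcna3* had moved from the seventh to the fourth place at 17.8 ± 8.88 CPM per kb (the fifth with the canonical length), its range overlapping those of *Kcnj2* and *Kcnk13*. *Kcnn4* (0.735 ± 0.202) and *Cacna1a* (0.732 ± 0.109) shared the lowest place. By exon length, the order in KO mice was the same as in wildtype mice after PBS, and after LPS it differed only in that *Cacna1a* (1.03 ± 0.24) had the higher mean of that last, overlapping pair (*Kcnn4*, 0.878 ± 0.176). This last place turned with the canonical length, by which *Kcnn4* lay above *Cacna1a* without overlap after LPS, at 2.97 against 1.55 CPM per kb in wildtype and 3.55 against 2.18 in KO mice, and *Trpm2* above *Kcna3* in KO mice with overlapping ranges.

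**Figure D1:**
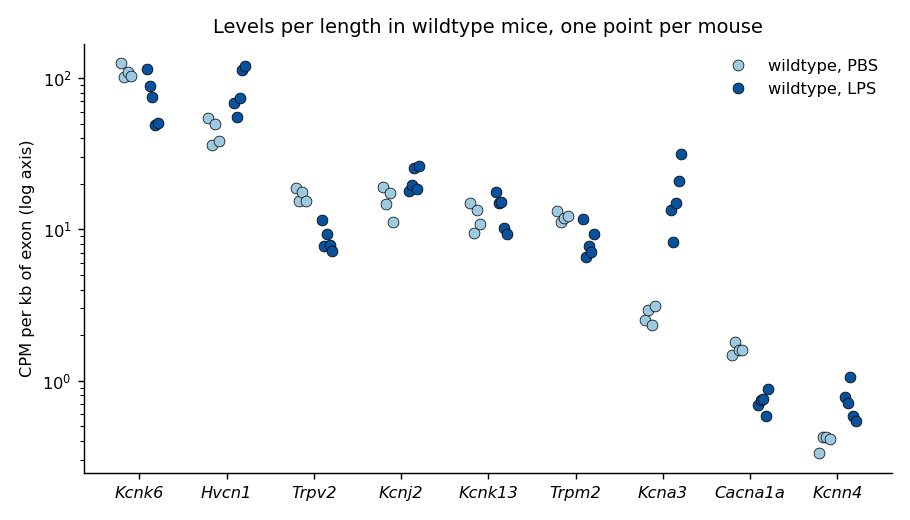
Levels of the 9 channel genes in wildtype mice as CPM per kb of annotated exon on a log axis, 1 point per mouse, with PBS in light blue and LPS in dark blue, ordered by the PBS mean. *Kcnk6* and *Hvcn1* are highest in both conditions, and *Kcna3* moves up from 2.73 to 17.8 CPM per kb on average.

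Sequences around the transcription start were taken from RefSeq (build GRCm38.p6) for the 6 members listed there, *Kcnk13*, *Kcna3*, *Kcnj2*, *Kcnn4*, *Trpv2* and *Trpm2*. Each window holds 250 bases before and 50 after the start. Both strands were searched for the NF-kappaB consensus, AP-1 (TGANTCA), PU.1 (GAGGAAGT) and the core of the interferon-stimulated response element (GAAA, any 2 bases, GAAA), binding motifs of factors that act in myeloid cells. These motifs occurred in 8.46%, 7.81%, 3.2% and 3.44% of all 32851 windows. The windows of *Kcna3*, the member with the largest LPS difference, of *Kcnn4*, the other potassium channel that was higher, and of *Trpv2*, which was lower, are shown at chr3:107035912-107036211, chr7:24370013-24370312 and chr11:62574236-62574535, all on the plus strand. Capitals mark a match.
Kcna3: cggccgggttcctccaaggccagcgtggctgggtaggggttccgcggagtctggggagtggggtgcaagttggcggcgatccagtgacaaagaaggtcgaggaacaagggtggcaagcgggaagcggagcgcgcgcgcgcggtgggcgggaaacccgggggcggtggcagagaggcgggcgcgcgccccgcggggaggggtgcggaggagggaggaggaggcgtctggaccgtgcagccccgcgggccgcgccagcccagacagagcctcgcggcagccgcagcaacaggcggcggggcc
Kcnn4: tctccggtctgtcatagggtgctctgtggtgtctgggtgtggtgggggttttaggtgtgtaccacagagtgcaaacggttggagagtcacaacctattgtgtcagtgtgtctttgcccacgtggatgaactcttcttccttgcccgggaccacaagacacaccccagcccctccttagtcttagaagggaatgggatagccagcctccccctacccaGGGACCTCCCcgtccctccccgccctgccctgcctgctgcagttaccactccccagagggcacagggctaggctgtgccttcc
Trpv2: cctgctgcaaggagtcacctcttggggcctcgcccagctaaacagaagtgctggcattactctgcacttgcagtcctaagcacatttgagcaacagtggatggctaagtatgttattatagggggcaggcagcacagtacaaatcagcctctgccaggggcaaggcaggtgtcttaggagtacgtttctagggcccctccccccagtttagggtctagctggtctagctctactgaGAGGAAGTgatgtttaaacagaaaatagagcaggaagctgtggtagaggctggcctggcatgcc
The *Kcnn4* window held 1 NF-kappaB match from base -33 to base -24 relative to the start, a stretch that fits the degenerate consensus on both strands. The *Trpv2* window held 1 PU.1 match from base -14 to base -7. A neighbouring *Trpv2* start has the same PU.1 match in its window, and a start further downstream has an NF-kappaB match. None of the 4 motifs occurred in the windows of *Kcna3*, *Kcnk13*, *Kcnj2* or *Trpm2*. A match is a description of the letters, and no binding was measured here.

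The comparison of LPS with PBS asked how the channels differ when systemic inflammation has been under way for 6 h. A gene was called when its adjusted p-value (edgeR quasi-likelihood test, Benjamini-Hochberg over all 18739 genes) was under 0.05 and its absolute log2 fold change (log2FC) at least 0.5. In wildtype mice 7 of the 9 channels were called, 3 higher (*Kcna3*, *Kcnn4* and *Hvcn1*) and 4 lower (*Kcnk6*, *Trpv2*, *Trpm2* and *Cacna1a*), where 35.9% of all genes were called, 18.4% higher and 17.4% lower. In KO mice 6 were called, the same 3 higher and *Kcnk6*, *Trpv2* and *Cacna1a* lower, against 39.1% of all genes, 20.1% higher and 19% lower. These 3 higher and 3 lower channels were called in both genotypes, as 16.8% of all genes were in the higher and 15.4% in the lower direction. The median log2FC of the 9 channels was 0.14 in wildtype and 0.03 in KO mice, beside -0.06 and -0.01 over all genes tested. In each genotype 5 channels had no overlap between the LPS and PBS mice, *Kcna3*, *Kcnn4*, *Hvcn1*, *Trpv2* and *Cacna1a*, a separation seen in 37.8% of all genes in wildtype and 32.8% in KO mice. Since the channels were picked with such results in view, these counts describe them and are no test of channels as a class.

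**Figure D2:**
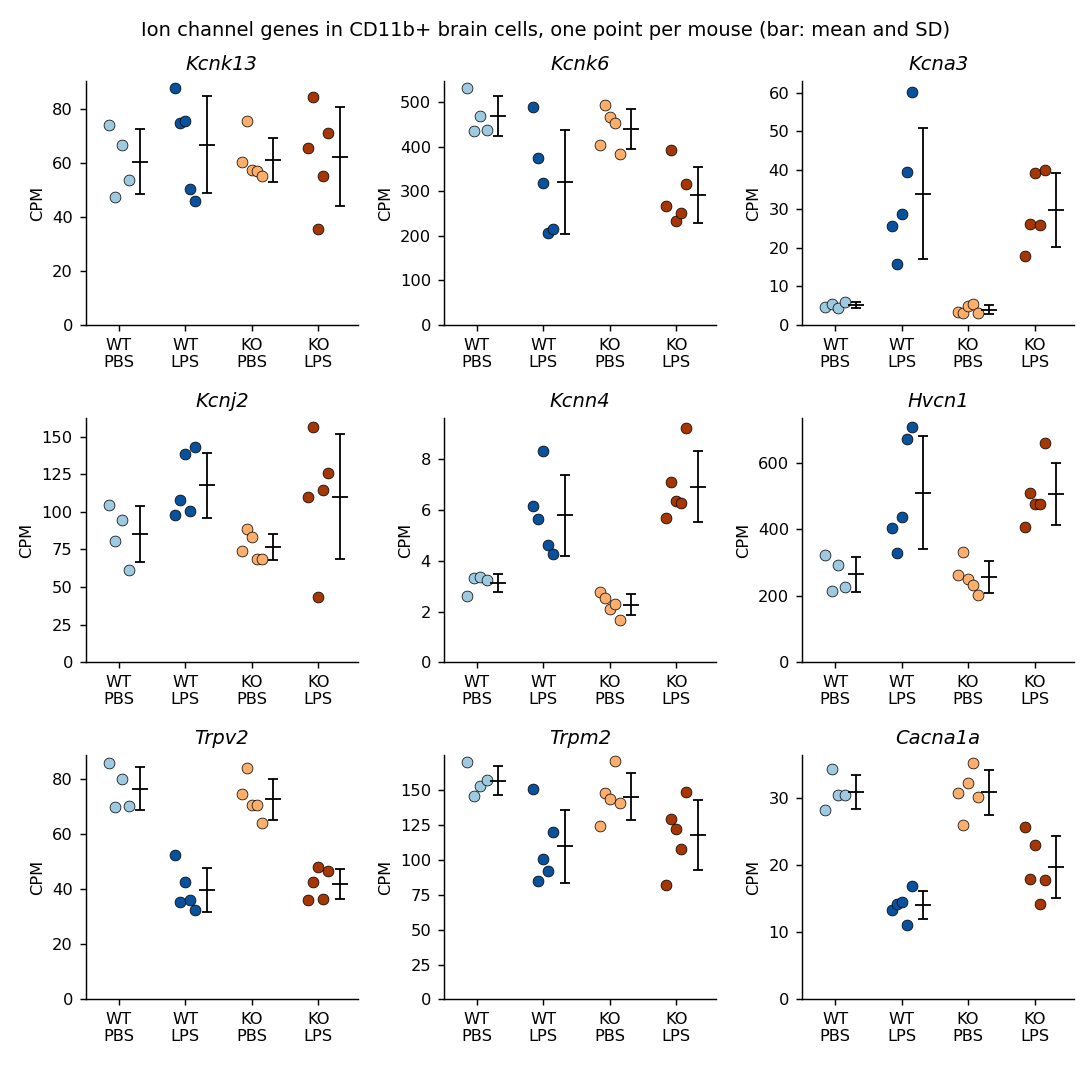
CPM of the 9 channel genes in the 4 groups, 1 point per mouse, with each axis starting at 0 and the mean and SD drawn beside each group (n = 4 for wildtype PBS, 5 for the others). *Kcna3*, *Kcnn4* and *Hvcn1* lie higher and *Trpv2* and *Cacna1a* lower in every LPS mouse than in any PBS mouse of the same genotype, while *Kcnk13* shows no such separation.

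The two-pore channels differed from each other. *Kcnk13* (chromosome 12, 99924948 to 100028942, plus strand, GRCm39) encodes THIK-1, the tonically active potassium channel of microglia that is gated downstream of the ADP receptor P2Y12. Its level in wildtype PBS mice was 74.1, 47.3, 66.5 and 53.9 CPM for replicates 1 to 4, and in wildtype LPS mice 87.7, 74.7, 75.4, 50.3 and 46.0 CPM for replicates 1 to 5. In KO mice replicates 1 to 5 had 60.4, 75.6, 57.5, 56.9 and 55.3 CPM after PBS, and KO LPS mice 65.7, 84.5, 35.4, 55.1 and 71.2 CPM. The LPS values surrounded the PBS values in both genotypes. The log2FC was 0.14 (SE 0.221, 95% CI -0.32 to 0.61, adjusted p = 0.647, edgeR) in wildtype and 0.03 (95% CI -0.41 to 0.47, adjusted p = 0.928) in KO mice. *P2ry12*, the receptor that couples to this channel, fell in the same libraries from 2290 ± 549 to 181 ± 86.5 CPM in wildtype mice (log2FC -3.66, SE 0.35, adjusted p = 1.28e-07).

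*Kcnk6* (chromosome 7, 28921346 to 28932035, minus strand) encodes TWIK-2, a potassium efflux channel linked to NLRP3 activation in macrophages. It had 530.3, 435, 469 and 436 CPM in wildtype PBS mice and 488, 375, 318, 206 and 215 CPM in wildtype LPS mice. LPS replicate 1 lay within the PBS range and the other 4 LPS mice below it. The KO PBS mice had 403, 493, 465, 453 and 383.5 CPM and KO LPS mice 266, 391, 233, 252 and 316 CPM, with replicate 2 alone reaching the PBS range. *Kcnk6* fell by 0.54 on the log2 scale in wildtype (SE 0.208, 95% CI -0.98 to -0.11, adjusted p = 0.0423) and by 0.59 in KO mice (SE 0.198, adjusted p = 0.0193). The wildtype call was lost without LPS replicate 3, 4 or 5 (log2FC -0.53, -0.42 and -0.43) or without PBS replicate 1, 2, 3 or 4 (-0.48, -0.56, -0.54 and -0.55), and the KO call without LPS replicate 3 (-0.52, adjusted p = 0.0514). With the blood cell markers as a covariate, neither call held (log2FC -0.26, adjusted p = 0.594, and -0.35, adjusted p = 0.344). This covariate added up the mean log2 CPM of the neutrophil, monocyte, T and NK cell, and B cell markers. The former pair was higher and the latter pair lower after LPS. The covariate therefore partly follows the treatment, and a call lost with it cannot be assigned to blood cells.

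Among the activation-associated potassium channels, *Kcna3* showed the largest difference of all members. *Kcna3* (chromosome 3, 106943485 to 106945386, plus strand) encodes the voltage-gated channel Kv1.3. Wildtype PBS mice had 4.80, 5.58, 4.47 and 5.96 CPM, and wildtype LPS mice 25.7, 15.8, 28.6, 39.5 and 60.1 CPM. KO PBS mice had 3.50, 3.19, 4.93, 5.39 and 3.13 CPM, and KO LPS mice 17.8, 26.0, 39.2, 25.7 and 40.1 CPM. The lowest LPS mouse was above the highest PBS mouse in both genotypes, and the wildtype LPS mice were spread widely, with replicate 2 lowest and replicate 5 highest. *Kcna3* rose 6.51-fold in wildtype (log2FC 2.70, SE 0.338, 95% CI 1.99 to 3.41, adjusted p = 3.05e-06) and 7.37-fold in KO mice (log2FC 2.88, SE 0.313, adjusted p = 4.38e-07). Only 4.02% of all genes tested had a larger absolute log2FC in wildtype and 3.4% in KO mice. Kv1.3 is also a channel of T cells. The summed T and NK cell markers, held mostly by *Cd4* and *Lck*, were at 8.7 to 11.5 CPM after PBS and at 2.29 to 5.79 CPM after LPS, and their part in the *Kcna3* difference was not tested. With the blood cell markers as a covariate the log2FC was 2.45 (adjusted p = 0.000936) in wildtype and 2.66 (adjusted p = 0.000156) in KO mice.

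*Kcnn4* (chromosome 7, 24066915 to 24086115, plus strand), which encodes the calcium-activated channel KCa3.1, was the member with the fewest reads, 31 to 138 counts per library. It had 2.61, 3.33, 3.35 and 3.23 CPM in wildtype PBS mice and 6.14, 5.66, 8.31, 4.62 and 4.26 CPM in wildtype LPS mice. KO PBS mice had 2.76, 2.54, 2.08, 2.30 and 1.67 CPM, and KO LPS mice 5.68, 7.09, 6.34, 6.26 and 9.24 CPM. LPS and PBS mice did not overlap in either genotype, and the gap was wider in KO mice. *Kcnn4* rose 1.85-fold in wildtype (log2FC 0.89, SE 0.224, 95% CI 0.42 to 1.36, adjusted p = 0.00327) and 3.04-fold in KO mice (log2FC 1.60, SE 0.212, 95% CI 1.16 to 2.05, adjusted p = 4.75e-06). The wildtype call did not hold with the blood cell markers as a covariate, at nearly the same log2FC (0.90, adjusted p = 0.0635), while the KO call did (1.61, adjusted p = 0.000565).

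*Kcnj2* (chromosome 11, 110956981 to 110967665, plus strand) encodes the inward rectifier Kir2.1, which stabilizes a negative membrane potential. Wildtype mice had 104, 80.8, 94.5 and 61.4 CPM after PBS and 98.1, 108, 138, 100.4 and 143 CPM after LPS. KO mice had 74.1, 88.6, 83.0, 68.9 and 68.7 CPM after PBS and 109.7, 157, 43.1, 115 and 126 CPM after LPS. In KO mice 4 of the 5 LPS values were above all PBS values and replicate 3 was below all of them. The log2FC was 0.46 (SE 0.25, 95% CI -0.06 to 0.99, adjusted p = 0.152) in wildtype and 0.52 (SE 0.234, 95% CI 0.03 to 1.01, adjusted p = 0.0787) in KO mice, and neither was called. Without KO LPS replicate 3, the library that was also lowest for *Kcnk13*, the KO log2FC was 0.72 (adjusted p = 0.00106) and passed.

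*Hvcn1* (chromosome 5, 122344867 to 122382736, plus strand) encodes the voltage-gated proton channel Hv1, which returns the charge that NADPH oxidase moves across the membrane. Wildtype PBS mice had 323, 213, 293 and 226 CPM, and wildtype LPS mice 404, 328, 437, 670.2 and 709 CPM. KO PBS mice had 264, 332, 250.3, 231 and 203 CPM and KO LPS mice 407, 508, 475, 477 and 658 CPM. The groups separated by a narrow margin in wildtype mice, 323 against 328 CPM, and by a wider one in KO mice. *Hvcn1* rose 1.93-fold in wildtype (log2FC 0.95, SE 0.219, 95% CI 0.49 to 1.41, adjusted p = 0.00163) and by a log2FC of 0.98 in KO mice (SE 0.204, adjusted p = 0.000575). It is also a B cell gene, and the B cell markers, held mostly by *Ighm*, were lower after LPS. Their part in the *Hvcn1* difference was not tested on its own. With the blood cell markers as a covariate the wildtype log2FC was 0.84 (adjusted p = 0.0742), and the KO value (0.88, adjusted p = 0.0319) still passed. Exons of *Tctn1* overlap *Hvcn1* on the other strand, at a median of 317 counts against 6767 for *Hvcn1*.

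The oxidase partners of the proton channel moved in the same libraries. Of the 6 NADPH oxidase subunits, 4 rose in both genotypes (*Cybb*, *Ncf1*, *Ncf4* and *Rac2*), where 16.8% of all genes were called higher in both. Neutrophils and monocytes also express this oxidase, and in wildtype mice their marker sums had medians of 91.2 and 214 CPM after PBS and of 242 and 563 CPM after LPS. The part of these cells in the difference was not tested. *Cybb*, the catalytic subunit, went from 63.4 ± 6.24 CPM after PBS to 485 ± 208 CPM after LPS in wildtype mice (log2FC 2.93, SE 0.27, adjusted p = 8.32e-08), and its log2FC in KO mice was 2.81. *Ncf4*, a cytosolic subunit, went from 42.1 ± 8.71 to 108 ± 16 CPM (log2FC 1.36, SE 0.148, adjusted p = 6.08e-07). Among 7 purinergic and inflammasome genes that act with potassium efflux, *Il1b* (log2FC 4.95 in wildtype and 4.73 in KO mice) and *Nlrp3* (2.16 and 2.36) rose, and *P2ry12*, *P2rx7* (-1.60 and -1.77) and *Nek7* (-0.82 and -1.13) fell. *P2rx4* and *Casp1* were not called in either genotype. Over all genes, 16.8% were called higher and 15.4% lower in both genotypes.

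The 3 calcium-permeable members were called lower in wildtype mice, and all but *Trpm2* in KO mice. *Trpv2* (chromosome 11, 62465304 to 62491341, plus strand) encodes a cation channel with a role in macrophage phagocytosis. Its level was 86.0, 70.1, 80.1 and 70.4 CPM in wildtype PBS mice and 52.7, 35.4, 42.6, 36.1 and 32.7 CPM in wildtype LPS mice. KO PBS mice had 74.6, 84.3, 70.6, 70.7 and 64.0 CPM and KO LPS mice 36.0, 42.5, 48.0, 36.6 and 46.6 CPM. Every LPS mouse lay below every PBS mouse, whichever the genotype. *Trpv2* fell by 0.94 on the log2 scale in wildtype (SE 0.135, 95% CI -1.22 to -0.66, adjusted p = 1.45e-05) and by 0.80 in KO mice (SE 0.128, adjusted p = 4.41e-05). The call held in both genotypes with the blood cell markers as a covariate (log2FC -0.98 and -0.83).

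*Trpm2* (chromosome 10, 77743556 to 77806405, minus strand) encodes the channel opened by ADP-ribose under oxidative stress. It had 170.3, 146, 153 and 157 CPM in wildtype PBS mice and 150.5, 84.6, 101, 91.9 and 120.15 CPM in wildtype LPS mice. KO PBS mice had 124, 148, 144, 170.4 and 140.45 CPM, and KO LPS mice 81.7, 129, 122, 108 and 148 CPM. LPS replicate 1 of the wildtype mice and LPS replicates 2 and 5 of the KO mice lay within the PBS range of their genotype. *Trpm2* fell by 0.52 on the log2 scale in wildtype mice (SE 0.165, 95% CI -0.86 to -0.17, adjusted p = 0.0165), and its log2FC in KO mice was -0.30 (SE 0.156, 95% CI -0.63 to 0.02, adjusted p = 0.122). The wildtype value lay near the threshold, and it missed it without LPS replicate 2, 3 or 4 (log2FC -0.42, -0.47 and -0.46), without PBS replicate 1 or 4 (-0.47 and -0.49), and with the blood cell markers as a covariate (-0.57, adjusted p = 0.102). The difference between the genotypes in this response was 0.21 (95% CI -0.26 to 0.69, adjusted p = 1), so that the call in wildtype mice alone does not show that the responses differ.

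*Cacna1a* (chromosome 8, 85065224 to 85367997, plus strand) encodes the pore of the P/Q-type calcium channel Cav2.1, best known from presynaptic terminals. Wildtype PBS mice had 28.2, 34.3, 30.5 and 30.4 CPM and wildtype LPS mice 13.2, 14.3, 14.5, 11.1 and 16.9 CPM. Among KO mice the PBS group had 30.75, 25.9, 32.2, 35.1 and 30.1 CPM and the LPS group 25.7, 17.9, 23.0, 14.2 and 17.8 CPM. The groups stood far apart in wildtype mice, whereas in KO mice LPS replicate 1 came close to the lowest PBS mouse. *Cacna1a* fell by 1.14 on the log2 scale in wildtype (SE 0.157, 95% CI -1.47 to -0.81, adjusted p = 9.28e-06) and by 0.64 in KO mice (SE 0.148, 95% CI -0.95 to -0.33, adjusted p = 0.00141). The gene is strongly expressed in neurons, and the neuronal marker sums of the LPS and PBS libraries overlapped. A covariate of neuron, oligodendrocyte, astrocyte and endothelial markers was formed like that of the blood cell markers. With it, the log2FC was -1.11 in wildtype and -0.63 in KO mice.

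**Figure D3:**
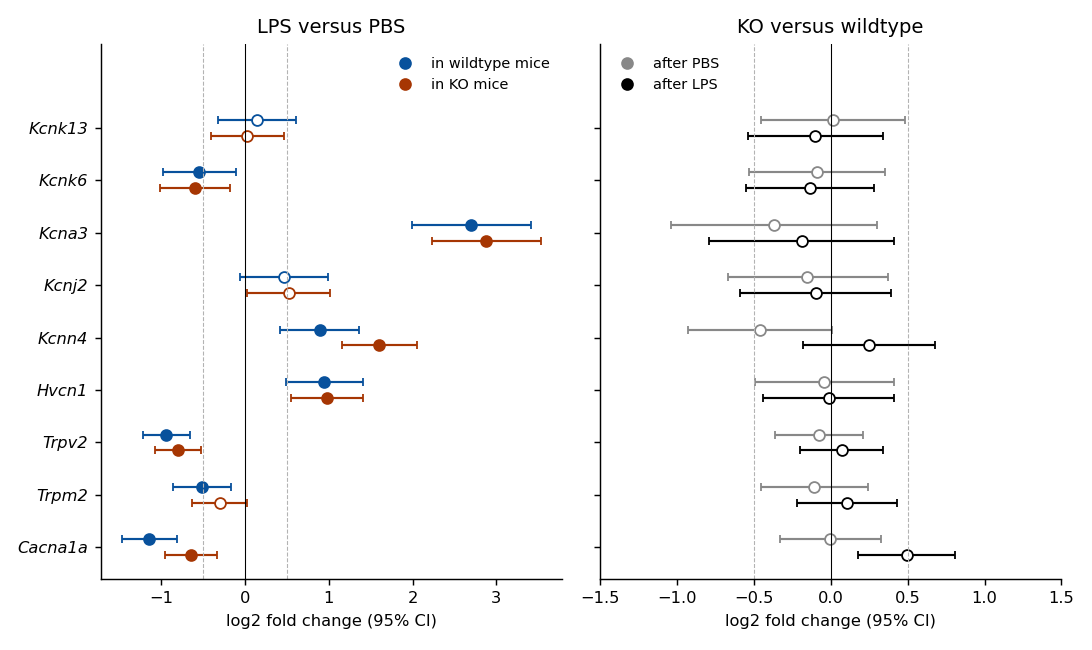
Log2FC with 95% confidence interval for each channel gene from the edgeR fit, with LPS against PBS on the left (wildtype blue, KO brown) and KO against wildtype on the right (after PBS grey, after LPS black). Filled points were called and open points were not, and dashed lines mark a log2FC of 0.5 in either direction. *Kcna3* lies farthest to the right at 2.70 and 2.88, and no channel is called for genotype.

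The comparison of KO with wildtype mice asked whether loss of DJ-1 alters the channels at rest or under LPS. Here a gene was called at an unadjusted p-value under 0.05 and an absolute log2FC of at least 0.5, the looser rule of the study, which called 1.31% of all genes after LPS (0.544% higher, 0.763% lower in KO) and 0.8% after PBS (0.224% and 0.576%). None of the 9 channels was called in either condition, and none separated the genotypes without overlap, as 0.219% of all genes did after LPS and 0.971% after PBS. In edgeR, 1 of the 9 had an unadjusted p-value under 0.05 after LPS and 0 after PBS, beside 482 and 195 of all genes. DESeq2 called 1 channel after LPS, *Cacna1a*, and 0 after PBS. All adjusted p-values of the channels were 1 in edgeR.

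*Cacna1a* came nearest to the threshold. Its KO LPS mice lay at 14.2 to 25.7 CPM and its wildtype LPS mice at 11.1 to 16.9 CPM, so that 1 KO mouse fell within the wildtype range and 4 lay above it. The log2FC was 0.497 (SE 0.149, 95% CI 0.18 to 0.81, unadjusted p = 0.0036, adjusted p = 1, edgeR), just under the 0.5 that a call needed. It passed without KO LPS replicate 2, 4 or 5 (0.53, 0.59 and 0.53) or wildtype LPS replicate 2, 3 or 5 (0.51, 0.51 and 0.57). It was smaller without KO LPS replicate 1 (0.39, unadjusted p = 0.0159) or replicate 3 (0.44, unadjusted p = 0.0116). KO LPS replicate 1 had the highest *Cacna1a* level of its group, 25.7 CPM, and the highest neuronal marker sum of all libraries, 161 CPM. With the markers of neurons and the other brain cells as a covariate, the log2FC was 0.49 (unadjusted p = 0.00224). After PBS the genotypes had the same mean, 30.8 CPM (log2FC 0.00, 95% CI -0.33 to 0.33).

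*Kcnn4* had the largest genotype log2FC at rest, -0.46 (SE 0.223, 95% CI -0.93 to 0.01, unadjusted p = 0.0538, adjusted p = 1). KO PBS mice lay at 1.67 to 2.76 CPM and wildtype PBS mice at 2.61 to 3.35 CPM, with an overlap made by KO replicate 1 and wildtype replicate 1. Without either of these mice the log2FC was -0.54 and passed, at an unadjusted p of 0.0362 and 0.04. After LPS the sign was the opposite, with a log2FC of 0.25 (95% CI -0.18 to 0.68). *Kcna3* had a log2FC of -0.37 after PBS (95% CI -1.04 to 0.30) and of -0.19 after LPS (95% CI -0.79 to 0.41), intervals that leave room for differences in either direction. For the other 6 channels the genotype log2FC lay between -0.15 and 0.10 in both conditions.

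The interaction of genotype and LPS tests directly whether the response differed between KO and wildtype mice. No channel had an adjusted p-value under 0.05, and neither did any of the 18739 genes (0% called). At an unadjusted p under 0.05 in edgeR there were 2 of the 9 channels and 180 of all genes. For *Kcnn4* the response was larger in KO mice by 0.71 on the log2 scale (SE 0.303, 95% CI 0.08 to 1.35, unadjusted p = 0.0302, adjusted p = 1). For *Cacna1a* it was less negative in KO mice by 0.50 (SE 0.215, 95% CI 0.05 to 0.95, unadjusted p = 0.0324, adjusted p = 1). With each mouse left out in turn, the value ranged from 0.59 to 0.87 for *Kcnn4* and from 0.38 to 0.59 for *Cacna1a*. The unadjusted p then exceeded 0.05 for several left-out mice of either genotype, reaching 0.0617 for *Kcnn4* (without KO LPS replicate 5) and 0.0802 for *Cacna1a* (without KO LPS replicate 1). The interaction of the other 7 channels ranged from -0.12 to 0.21.

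Other channel genes, 229 by name in 12 families that leave out the ligand-gated channels, give the setting. Of these, 172 were tested, and after LPS 14 rose and 21 fell in wildtype mice (8.14% and 12.2%, beside 18.4% and 17.4% of all genes), with a median log2FC of -0.29 beside -0.06 over all genes. In KO mice 18 rose and 25 fell (10.5% and 14.5%, beside 20.1% and 19% of all genes), with a median of -0.17 beside -0.01. The counts by family that follow stand against the same shares of all genes. Among two-pore channels, the only other gene called was *Kcnk12*, the closest relative of *Kcnk13*, which fell from 18 ± 3.24 to 1.59 ± 0.392 CPM in wildtype mice (log2FC -3.49, SE 0.28, adjusted p = 1.79e-08) and had a log2FC of -4.09 in KO mice. *Kcnk13*, as shown above, lay at 60.5 ± 12.1 and 66.8 ± 17.9 CPM in the same wildtype groups.

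**Figure D4:**
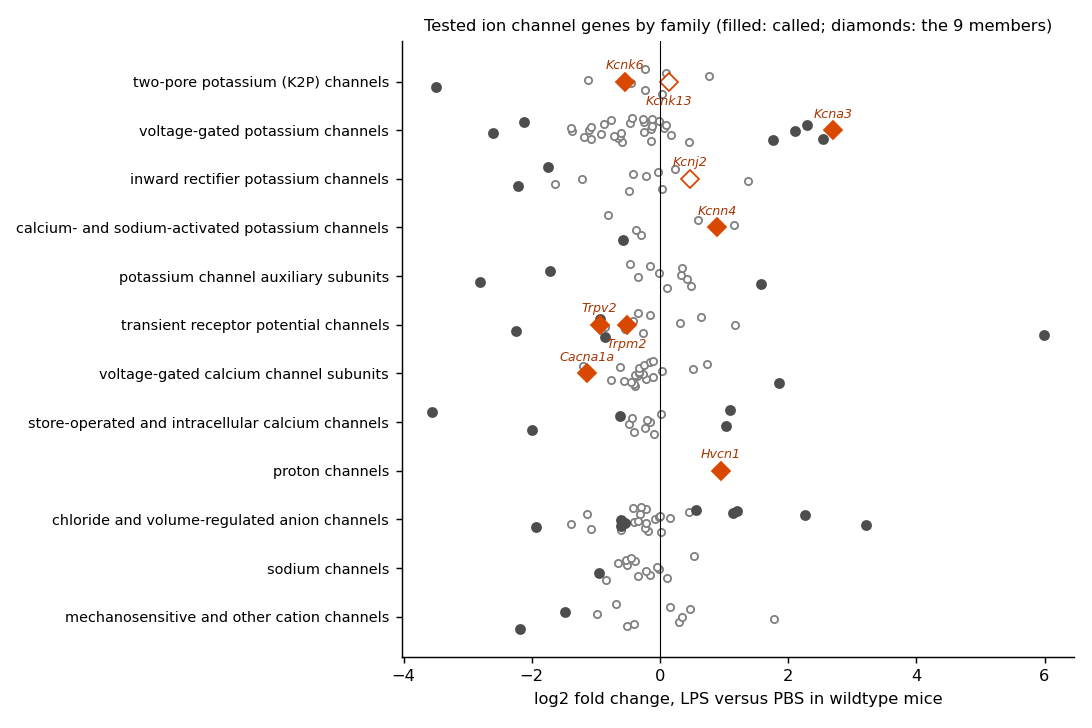
Log2FC of LPS against PBS in wildtype mice for the 172 other tested channel genes (circles) and the 9 members (orange diamonds) by family, filled where called. Vertical position within a family only separates points. *Kcna3* lies at the upper end of the voltage-gated potassium channels, and *Kcnk12* (-3.49) and *Mcoln2* (5.99, from a PBS mean below 3 counts) are far from the other genes of their families.

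Among 34 other voltage-gated potassium channels, 4 rose and 2 fell in wildtype mice. *Kcnh4* (log2FC 2.30, SE 0.519) and *Kcnf1* (2.11, SE 0.702) rose from means near 1 CPM, and *Kcnd1*, an A-type channel gene, fell from 64.1 ± 11.8 to 10.5 ± 4.58 CPM (log2FC -2.60, SE 0.244, adjusted p = 9.9e-08). The inward rectifiers next to *Kcnj2* had 0 genes higher and 2 lower of 11, *Kcnj12* (-2.21) and *Kcnj9* (-1.75). Of 6 other calcium- and sodium-activated channels, the large-conductance channel gene *Kcnma1* fell by 0.58 on the log2 scale, opposite in sign to *Kcnn4*. Of the 12 auxiliary subunits, *Kcnab3* (1.58) rose, and *Kcne2* (-2.80) and *Kcnip3* (-1.72) fell. The 3 other proton channel genes by name, the otopetrins, had too few counts to be tested.

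Of 13 other transient receptor potential genes, *Mcoln2*, an endolysosomal channel gene, rose from 0.132 ± 0.135 to 8.97 ± 6.29 CPM in wildtype mice (log2FC 5.99, SE 0.812, adjusted p = 7.77e-06). Its PBS mean lay below the floor of 3 counts, so that the size of this log2FC depends on the fit's handling of low counts. Of the 13 genes, 1 was called higher and 3 lower in wildtype mice, the lower ones including *Trpm4* (-0.94) and *Mcoln1* (-0.86). The remaining lower gene had a mean under 1 CPM. Among 22 other voltage-gated calcium channel subunits 1 was called, *Cacna1d*, the pore of an L-type channel, which rose from 102 ± 19.1 to 369 ± 69.9 CPM (log2FC 1.85, SE 0.235, adjusted p = 3.69e-06) while *Cacna1a* fell. The store-operated and intracellular calcium channels had 2 higher and 3 lower of 13, with *Tpcn2* (1.10) and *Orai2* (1.03) up and the endolysosomal gene *Tpcn1* (-3.55) and the inositol trisphosphate receptor gene *Itpr3* (-1.99) down. The chloride and anion channels had 5 higher and 4 lower of 28, led by *Best1* (3.22) and *Clic4* (2.26) and by *Ano7* (-1.94) and *Ano8* (-0.61). *Tmem175*, a lysosomal potassium and proton channel gene, fell by 1.48. Each gene named here was called in the same direction in KO mice. For genotype, *Kcnk12* was called lower in KO mice after LPS, and 0 of the 172 were called after PBS.

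The genes whose log2 CPM followed each channel most closely over the 19 libraries are given as a description, by Pearson's r among 14469 protein-coding genes tested. The points share the 4 groups, so that a gene that responds to LPS resembles others that do. *Kcna3* was followed most closely by *Rhbdf2* (r = 0.986) and *Cd69* (0.984), *Trpv2* by *Cd300c2* (0.986) and *Parvg* (0.983), *Kcnk6* by *Tpbgl* (0.972) and *Osbpl11* (0.964), and *Hvcn1* by *Sppl2a* (0.972) and *Acsl5* (0.971). For *Kcnn4* they were *Slc7a5* (0.946) and *Polr3e* (0.942), for *Cacna1a* *Nedd4l* (0.925) and *Scube1* (0.925), and for *Trpm2* *Naip5* (0.911) and *Strada* (0.91). *Kcnk13* and *Kcnj2*, which were not called after LPS, were followed by *Fam111a* (0.945) and *Cybc1* (0.921) and by *Pygo2* (0.904) and *Slc16a10* (0.899).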

How the data were processed

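Total RNA of CD11b+ cells from 19 mice was sequenced by the authors as stranded, ribosome-depleted libraries. They used Cutadapt for trimming, and STAR 2.7.9a with GRCm39 for alignment and counting. The strand setting of the counting is not given in the sources used here, so a gene and its antisense partner may share reads. The deposited values are raw counts per Ensembl gene for each mouse, not normalized by the authors. There were 0 unused sample columns, and GENCODE M39 named 56236 of the 56980 genes. The analysis used edgeR 4.0.16 (R 4.3.3): filterByExpr (minimum count 10, minimum total count 15), TMM normalization and 1 quasi-likelihood fit of all 19 libraries with the 4 groups. The SE is the size of the log2FC divided by the square root of F. Log2 CPM used a prior count of 2. LPS calls used Benjamini-Hochberg adjusted p-values under 0.05, genotype calls unadjusted p-values under 0.05, both with an absolute log2FC of at least 0.5, and the interaction adjusted p-values alone. The script was tested on simulated data.

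The labels number the mice, which were taken as separate animals. No pair of libraries within a group agreed within sampling noise (chi-square per degree of freedom of at least 6.5 over 36 pairs). The floor of 3 counts covers counting error only. Alternatives were DESeq2 1.42.0, its size factors in edgeR, no filter on low counts and only the groups compared. Further ones were a replicate block, each mouse left out, marker covariates and other thresholds. A marker covariate was the sum, over its cell types, of the mean log2 CPM of each marker list, with 0.5 CPM added to each value. Genes named were the 9 members, *Park7*, marker genes, the 2 genes by gene family and direction with the largest LPS log2FC in wildtype mice (called alike in both genotypes, mean of at least 1 CPM), and the 2 closest genes by correlation. *Ncf1*, *Rac2*, *Nek7*, *P2rx4*, *Casp1* and *Tctn1* were named after their values were seen. The members and gene lists were chosen with earlier results of these data known. Promoter sequences are from RefSeq. Some genes of these families are not reported here.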

Additional observations from a re-analysis of the deposited data

Results flagged for a closer look

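Of 36 sets of values, each 1 channel in 1 group, 2 held a mouse that lay apart from the rest by Dixon's criterion at the 95% level, which chance alone meets in about 1 of 20 sets. *Kcnk13* was highest in KO PBS replicate 2, at 75.6 CPM, where the next mouse had 60.4 CPM (gap over range 0.749, critical value 0.71). *Kcnn4* was lowest in wildtype PBS replicate 1, at 2.61 CPM, where the next mouse had 3.23 CPM (gap over range 0.837, critical value 0.829). Without KO PBS replicate 2 the log2FC of *Kcnk13* between genotypes after PBS was -0.07 in place of 0.02, and without wildtype PBS replicate 1 that of *Kcnn4* was -0.54 in place of -0.46. What set these mice apart was not tested.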

How the results depend on the processing

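The calls of *Kcna3*, *Trpv2* and *Cacna1a* after LPS held in both genotypes under every alternative fit at the same threshold, as did those of *Kcnn4* and *Hvcn1* in KO mice. With the blood cell markers as a covariate, 1 channel was higher and 2 were lower in wildtype mice. With an absolute log2FC of at least 1, 1 was higher and 1 lower in wildtype mice and 0 lower in KO mice. With only the groups compared, *Kcnk6* in wildtype mice had a log2FC of -0.59 (adjusted p = 0.0761). For KO against wildtype after LPS, 1 channel, *Cacna1a*, was called with DESeq2 (0.52), its size factors in edgeR (0.51) and only the groups compared (0.50). With each mouse left out in turn, 3 channels were higher each time and 2 to 4 lower in wildtype LPS mice, 3 to 4 higher and 2 to 3 lower in KO LPS mice, and for genotype 0 to 1 higher after LPS and 0 to 1 lower after PBS. The fewest lower in wildtype mice, 2, came without LPS replicate 3 or 4 or PBS replicate 1 or 4.

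Signs changed only for values near 0 that were not called. *Hvcn1* for KO against wildtype after LPS was 0.00 with DESeq2, its size factors or the replicate block, and 0.02 with the blood cell markers. *Kcnk13* after PBS was -0.01 with DESeq2 or its size factors and -0.02 without the filter or with the blood cell markers, and for LPS in KO mice it was -0.01 without the filter or with the other brain cell markers. *Cacna1a* after PBS was 0.00 with the other brain cell markers and 0.01 with only the groups compared. With a mouse left out, the genotype log2FC after LPS spanned -0.23 to 0.05 for *Kcnk13*, -0.26 to 0.07 for *Kcnk6*, -0.36 to 0.12 for *Kcna3*, -0.26 to 0.11 for *Kcnj2* and -0.13 to 0.14 for *Hvcn1*. After PBS it spanned -0.08 to 0.13 for *Kcnk13*, -0.16 to 0.07 for *Hvcn1* and -0.05 to 0.06 for *Cacna1a*, and the LPS log2FC of *Kcnk13* in KO mice -0.10 to 0.18.

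Mice with the same replicate number did not deviate together throughout: the correlation of their deviations ranged from -0.04 to 0.58 between wildtype LPS and PBS mice, 0.03 to 0.54 between the KO groups, -0.57 to 0.30 between genotypes after LPS and -0.29 to 0.30 after PBS. Within a genotype most of these values were positive, so they do not settle whether the numbers pair the samples. The fit with the replicate block changed no call of the 9 channels. It had 3 higher and 4 lower in wildtype, 3 higher and 3 lower in KO mice, and 0 for genotype or interaction.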
